A study of Populus ussuriensis with 18 samples.

Results

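The REVEILLE genes described here are 4 of the 30485 genes measured in *Populus ussuriensis* roots before and during low-nitrogen (LN) treatment. They are the genes that carry a REVEILLE name in the annotation used. They are RVE8 on chromosome 6 (Potri.006G133000.v3.0), RVE8 on chromosome 16 (Potri.016G083900.v3.0), RVE5 on chromosome 2 (Potri.002G163100.v3.0) and RVE2 on chromosome 4 (Potri.004G074300.v3.0), where the chromosome is the one in the identifier. The names come from the annotation columns of tables of genes the study selected on these libraries, where 4 of 1147 annotated genes carry a REVEILLE name. They record the most similar known protein and not an established function in poplar. Wild-type plantlets of 1 clonally propagated line were rooted in vitro, moved to LN medium (0.05 mM nitrate and 0.025 mM ammonium), and their whole root systems were taken for RNA-seq. The LN groups were sampled at 12, 24, 48, 96 and at 336 h, counted from the transfer, and the control group at 0 h, from medium with 10 mM nitrate and 5 mM ammonium, with 3 biological replicates, or libraries, per group and 18 libraries in all.

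REVEILLE proteins are transcription factors with a single Myb-like domain and belong, in *Arabidopsis thaliana*, to the same family as LHY and CCA1, the dawn-phased repressors of the plant circadian clock. LHY and CCA1 hold down genes that peak in the evening, whereas RVE8 binds the same promoter motif, the evening element, and raises those genes later in the day. RVE5 is counted with the RVE8 branch of the family in *A. thaliana*, and RVE2, also known as CIRCADIAN 1, is a relative from the other branch that has been linked to seed dormancy and to clock output. Poplars keep many genes as paired copies from an ancient genome duplication, and both RVE8 genes were called the same name in the annotation.

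The values are FPKM (fragments divided by gene length and by all fragments that the library has on genes), so levels of genes of different length can be compared. All of them corresponded to whole fragments, and the library totals recovered from them were 15945075 to 18193661 fragments (median 17401559). The labels give each time point a batch of its own, so batch and time point cannot be told apart. No roots kept on control medium until the later times were analysed here, and the clock hour of sampling is not stated for any group. All LN times except 12 h fall a whole number of 24 h periods past the control sampling. In whole roots, a lower level can mean fewer cells of a type or less RNA per cell, which cannot be told apart. Replicates correlated at 0.990 to 0.995 over genes (log2 scale), except that replicate 3 of 48 h correlated at 0.902 with each of the other 48 h libraries. The tests and group means at 48 h are therefore also given without that library. Which of the 48 h libraries are typical of that time cannot be told from them, so these values are a check and not a correction. Of 3 genes named for the root regulator SCARECROW, Potri.006G114200 was at 3.39 to 12.5 FPKM in the 18 libraries, Potri.016G143900 at 0.304 to 2.15 FPKM and Potri.T138100 at 0.0682 to 0.779 FPKM, and SHORT-ROOT (Potri.017G025900) was at 3.20 to 15.7 FPKM. The leaf marker list was not at 0 in these roots: both annotated CP29.2 genes, which encode chlorophyll-binding proteins of green tissue, were detected in 18 of 18 libraries, at 24.3 to 185 and 42.4 to 180 FPKM. Both marker lists changed with time. The summed level of the CP29.2 genes was 124 to 135 FPKM for 12 h, 224 to 228 FPKM for 24 h, 123 to 211 FPKM for 48 h, 301 to 321 FPKM for 96 h and 67.1 to 90.4 FPKM for 336 h, against 320 to 336 FPKM for the control. That of the 4 root genes was 7.34 to 9.04 FPKM for 12 h, 14.2 to 14.7 FPKM for 24 h, 12.5 to 15.1 FPKM for 48 h, 20.6 to 22.2 FPKM for 96 h and 27.0 to 29.4 FPKM for 336 h, against 18.05 to 18.97 FPKM for the control. The part of these changes in the results of the REVEILLE genes was not tested.

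Each REVEILLE gene was expressed in every library at a moderate level. RVE2 had the highest mean over the 18 libraries, 9.24 FPKM, which is above 60.5% of all genes. The chromosome 16 copy of RVE8 averaged 6.92 FPKM (above 53.3% of genes), RVE5 averaged 6.13 FPKM (50.5%) and the chromosome 6 copy of RVE8 averaged 4.93 FPKM (45.8%). Between 42 and 1096 fragments stood behind each value. At 42 fragments, in the chromosome 16 copy of RVE8 in replicate 3 of 48 h, the counting error alone was 15.4% (1 SD), and at 1096 fragments, in RVE2 at 336 h, it was 3.02%. The sum of the 4 genes was 52.1 ± 1.22 FPKM at 336 h and 18.3 ± 0.806 FPKM in the control (SD, n = 3 each).

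**Figure D1:**
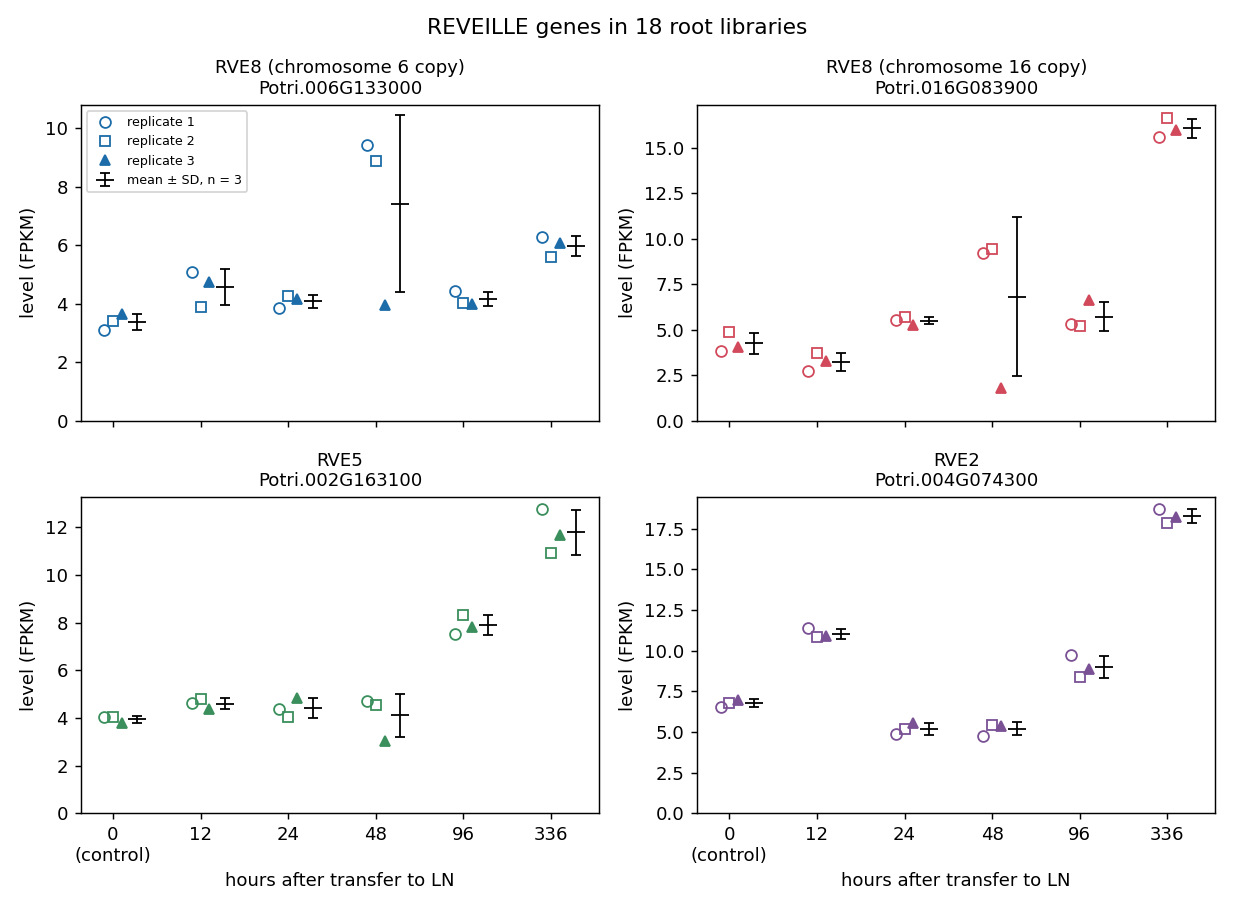
Level of each REVEILLE gene (FPKM, vertical axis from 0) in the 3 libraries of the control at 0 h and of each LN time point (horizontal axis, hours after transfer, evenly spaced); symbols are single libraries, and black bars are the mean ± SD of 3 libraries. The 336 h libraries lie above the control libraries in all 4 panels, and replicate 3 of 48 h (filled triangle) lies far below the other 48 h libraries for both RVE8 copies, at 3.93 and 1.77 FPKM.

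The chromosome 6 copy of RVE8, whose counterpart in *A. thaliana* activates evening genes, had 5.09, 3.87 and 4.73 FPKM at 12 h, 3.83, 4.27 and 4.15 FPKM at 24 h, 9.43, 8.86 and 3.93 FPKM at 48 h, 4.45, 4.02 and 4.00 FPKM at 96 h and 6.26, 5.58 and 6.05 FPKM at 336 h, against 3.10, 3.40 and 3.65 FPKM in the control. Every LN library was above every control library, and 2 of the 3 libraries of 48 h were the highest of all 18. By limma on log2(FPKM + 1), with p-values adjusted over all genes tested, the log2 fold change against the control was 0.34 at 12 h (SE 0.095, adjusted p = 0.0141), 0.21 at 24 h (SE 0.068, adjusted p = 0.0331), 0.23 at 96 h (SE 0.068, adjusted p = 0.0193) and 0.67 at 336 h (SE 0.076, adjusted p = 0.000131). It thus rose at these 4 times, by 1.76 times in mean FPKM at 336 h, although quantile normalization took away the calls at 12 h (log2 fold change 0.097, adjusted p = 0.414) and 24 h (0.018, adjusted p = 0.860) and turned the direction at 96 h (-0.096, adjusted p = 0.274). The call at 24 h was lost without replicate 2 or 3 of 24 h (0.19 and 0.21, adjusted p = 0.102 and 0.0923) or replicate 1 or 2 of the control (0.17 and 0.22, adjusted p = 0.0868 and 0.0670), and that at 96 h without replicate 1 of 96 h (0.19, adjusted p = 0.0693) or of the control (0.19, adjusted p = 0.0528). At 48 h the log2 fold change was 0.87 (SE 0.29), which did not pass (adjusted p = 0.104). With replicate 3 left out it was 1.21 (SE 0.079, adjusted p = 2.35e-05), the highest of this copy at any time. That value rests on replicates 1 and 2 of 48 h, while replicate 3 (3.93 FPKM) lay within the range of the 24 h libraries. Which of the 48 h libraries are typical of that time was not tested.

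The chromosome 16 copy of RVE8 had 2.72, 3.69 and 3.27 FPKM at 12 h, 5.52, 5.68 and 5.27 FPKM at 24 h, 9.23, 9.44 and 1.77 FPKM at 48 h, 5.30, 5.20 and 6.63 FPKM at 96 h and 15.6, 16.6 and 16.0 FPKM at 336 h, against 3.82, 4.89 and 4.02 FPKM in the control. The 12 h libraries lay below the control libraries and those of 24, 96 and 336 h above them, while the 48 h libraries lay on both sides, with the lowest of all 18 values in replicate 3. The level fell by 0.31 on the log2 scale at 12 h (SE 0.11, adjusted p = 0.0342), rose by 0.31 at 24 h (SE 0.083, adjusted p = 0.0168) and by 0.35 at 96 h (SE 0.11, adjusted p = 0.0226). At 336 h it rose by 1.71 (SE 0.088, adjusted p = 1.6e-06), a ratio of 3.79 in mean FPKM and the largest change of the 4 genes. At 12 h the call rested on single libraries: without replicate 1 or 3 of 12 h the change was -0.22 (adjusted p = 0.102) or -0.32 (adjusted p = 0.0666), and without replicate 2 or 3 of the control -0.22 (adjusted p = 0.104) or -0.34 (adjusted p = 0.0548). The call at 24 h was also lost without replicate 2 of 24 h (0.29, adjusted p = 0.0547) or replicate 3 of the control (0.28, adjusted p = 0.0543), and that at 96 h without replicate 3 of 96 h (0.26, adjusted p = 0.0639) or replicate 1 or 3 of the control (0.30 and 0.33, adjusted p = 0.0711 and 0.0666). At 48 h the log2 fold change was 0.35 (SE 0.52, adjusted p = 0.681), and without replicate 3 it was 0.98 (SE 0.098, adjusted p = 0.000185).

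RVE5 was nearly flat until 48 h and higher at 96 and 336 h. It had 4.61, 4.81 and 4.39 FPKM at 12 h, 4.36, 4.02 and 4.85 FPKM at 24 h, 4.70, 4.56 and 3.05 FPKM at 48 h, 7.54, 8.34 and 7.83 FPKM at 96 h and 12.8, 10.9 and 11.7 FPKM at 336 h, against 4.02, 4.02 and 3.78 FPKM in the control. All libraries of 96 and 336 h were above all others, and those of 24 and 48 h overlapped the control. RVE5 rose by 0.85 on the log2 scale at 96 h (SE 0.058, adjusted p = 1.08e-05) and by 1.37 at 336 h (SE 0.075, adjusted p = 2.21e-06), ratios of 2.01 and 2.99 in mean FPKM. At 12 h it passed the test with a log2 fold change of 0.18 (SE 0.060, adjusted p = 0.029), which quantile normalization turned to -0.058 (adjusted p = 0.423). It no longer passed at 12 h without replicate 1 or 2 of 12 h (0.18 and 0.15, adjusted p = 0.0565 and 0.102) or replicate 3 of the control (0.16, adjusted p = 0.0881). The values of 0.13 at 24 h (SE 0.070, adjusted p = 0.168) and 0.030 at 48 h (SE 0.15, adjusted p = 0.912) did not pass. Leaving out replicate 3 of 48 h gave 0.19 at that time (SE 0.065, adjusted p = 0.0449).

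RVE2 followed another course, with 1 high time point early and another late. It had 11.4, 10.8 and 10.9 FPKM at 12 h, 4.84, 5.16 and 5.53 FPKM at 24 h, 4.76, 5.45 and 5.38 FPKM at 48 h, 9.72, 8.40 and 8.88 FPKM at 96 h and 18.7, 17.8 and 18.2 FPKM at 336 h, against 6.55, 6.78 and 6.99 FPKM in the control. No LN library overlapped the control libraries: those of 12, 96 and 336 h were above and those of 24 and 48 h below them. RVE2 rose by 0.63 on the log2 scale at 12 h (SE 0.058, adjusted p = 4.15e-05), by 0.36 at 96 h (SE 0.065, adjusted p = 0.0020) and by 1.31 at 336 h (SE 0.063, adjusted p = 1.13e-06), and it fell by 0.33 at 24 h (SE 0.062, adjusted p = 0.0034). The ratios of mean FPKM were 1.63 for 12 h, 0.764 for 24 h, 1.33 for 96 h and 2.70 for 336 h. At 48 h the log2 fold change was -0.33 (SE 0.090, adjusted p = 0.0633), although replicate 3 was close to the other 48 h libraries for this gene. Without that library it was -0.35 (SE 0.076) and passed (adjusted p = 0.00741).

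**Figure D2:**
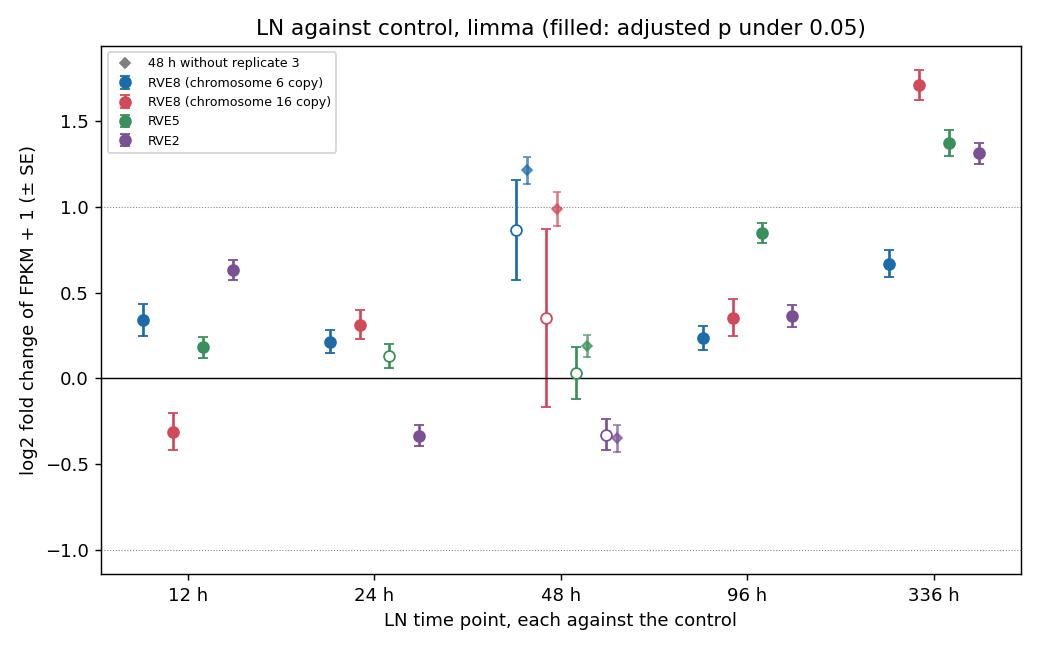
Log2 fold change of FPKM + 1 (vertical axis) for each LN time point against the control (horizontal axis), by limma; circles are the fits on 6 libraries, diamonds the 48 h fits without replicate 3, bars ± SE, filled symbols have an adjusted p under 0.05, and dotted lines mark a log2 fold change of 1 and -1. All 4 genes are above 0 at 96 and 336 h, the chromosome 16 copy of RVE8 is below 0 only at 12 h (-0.31), and RVE2 is below 0 at 24 and 48 h (-0.33 at each).

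At 12 h, 3 of the 4 REVEILLE genes rose (RVE5, RVE2 and the chromosome 6 copy of RVE8) and 1 fell, the chromosome 16 copy of RVE8. The call of the chromosome 6 copy was also lost with limma-voom and median-ratio scaling (0.26, adjusted p = 0.0920). Over all genes tested at 12 h, 43.2% passed the test upwards and 20.4% downwards. The median log2 fold change of all tested genes was 0.15 for 12 h, 0.082 for 24 h, 0.041 for 48 h, 0.13 for 96 h and 0.21 for 336 h, and quantile normalization brought it to between -0.077 and 0.011. Relative to that median, the log2 change at 12 h was 0.19 for the chromosome 6 copy of RVE8, -0.46 for the chromosome 16 copy, 0.035 for RVE5 and 0.48 for RVE2. With quantile normalization, 6576 genes were higher and 7307 lower at 12 h, against 9932 higher and 4686 lower in the values as deposited.

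At 24 h both RVE8 copies rose and RVE2 fell, while RVE5 did not pass. Neither RVE8 call held with quantile normalization (0.018, adjusted p = 0.860 for chromosome 6 and 0.13, adjusted p = 0.257 for chromosome 16) or with limma-voom and median-ratio scaling (0.17, adjusted p = 0.258 and 0.28, adjusted p = 0.0914). Of all tested genes, 31.4% passed upwards and 16.2% downwards at 24 h, or 4813 and 5710 genes after quantile normalization, against 7149 and 3694 in the values as deposited. None of the 4 genes was a differentially expressed gene (DEG, which takes a log2 fold change of 1 or more in size besides an adjusted p under 0.05) at 12 h or 24 h, by limma, although all 4 passed the test at 12 h and 3 at 24 h. Higher DEGs made up 6.21% of tested genes at 12 h and 4.29% at 24 h.

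At 48 h none of the 4 genes passed the test by limma, where 8.09% of tested genes passed upwards, 5.54% passed downwards and 2.84% were higher DEGs. Without replicate 3 of 48 h all 4 passed, both RVE8 copies and RVE5 upwards and RVE2 downwards, and the chromosome 6 copy of RVE8 was a DEG. Without that library 26.4% of tested genes passed upwards, 28.2% downwards and 7.72% were higher DEGs. With all 3 libraries, quantile normalization gave 1170 genes higher and 1632 lower at 48 h, against 1843 and 1262 in the values as deposited.

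At 96 h all 4 genes rose against the control, in a comparison where 41.5% of tested genes passed upwards and 17.6% downwards, and none of the 4 was among the 8.18% that were higher DEGs. RVE5 changed most, at 0.72 above the median log2 fold change of all tested genes. The chromosome 6 copy of RVE8 was 0.10 above the median, the chromosome 16 copy 0.22 and RVE2 0.23. After quantile normalization, 5738 genes were higher and 8089 lower at 96 h, against 9690 and 4110 in the values as deposited, and RVE5 alone of the 4 kept its call.

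At 336 h all 4 genes rose, and RVE5, RVE2 and the chromosome 16 copy of RVE8 were DEGs. In the same comparison the CP29.2 genes fell, by 2.61 (adjusted p = 1.83e-06) and 1.62 (adjusted p = 4.18e-06) on the log2 scale. Of the root genes, SHORT-ROOT rose by 1.19 (adjusted p = 5.00e-06), with 15.1 FPKM at 336 h against 6.07 FPKM in the control. The SCARECROW genes Potri.006G114200 (0.085, adjusted p = 0.518) and Potri.016G143900 (-0.11, adjusted p = 0.499) did not pass, and Potri.T138100 was too low to be tested. At that time 47.5% of tested genes passed upwards, 16.8% downwards and 8.28% were higher DEGs. The log2 fold changes of RVE2, RVE5 and the chromosome 16 copy of RVE8 were above those of 95.3%, 95.8% and 97.6% of the 23320 genes tested, and that of the chromosome 6 copy above 83.7%. The 4 genes were named from lists of DEGs that the study called on these same libraries. The ranks at 336 h and the calls at every LN time are therefore a description and not independent of that selection. After quantile normalization 6675 genes were higher and 6370 lower at 336 h, against 11086 and 3917 in the values as deposited. Each call of a REVEILLE gene at 336 h held under every alternative that was run and without any single library.

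The steps between neighbouring LN times do not use the control libraries. At 24 h against 12 h, RVE2 fell by 0.96 on the log2 scale (SE 0.060, adjusted p = 3.18e-05), with 4.84 to 5.53 FPKM at 24 h against 10.8 to 11.4 FPKM at 12 h. The chromosome 16 copy of RVE8 rose by 0.62 in that step (SE 0.087, adjusted p = 0.00121), and the other 2 genes did not pass. In the same step 16.4% of tested genes passed upwards and 26.4% downwards, or 4779 and 4865 genes after quantile normalization, against 3795 and 6081 in the values as deposited. At 48 h against 24 h none of the 4 genes passed by limma, where 0.325% of tested genes passed upwards and 1.26% downwards. Without replicate 3 of 48 h both RVE8 copies rose in that step, by 0.997 (chromosome 6, adjusted p = 4.88e-05) and 0.67 (chromosome 16, adjusted p = 0.00016), in a comparison where 21.1% of tested genes passed upwards and 37.2% downwards. RVE5 and RVE2 did not pass with that library or without it. The log2 fold change of RVE2 at 24 h against 12 h was just past 1 in size (-1.00292) when replicate 3 of 24 h was left out.

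At 96 h against 48 h, RVE5 rose by 0.82 on the log2 scale (SE 0.15, adjusted p = 0.0252) and RVE2 by 0.69 (SE 0.094, adjusted p = 0.0114), while 9.47% of tested genes passed upwards and 2.27% downwards. After quantile normalization 1436 genes were higher and 938 lower in this step, against 2228 and 534 in the values as deposited. Without replicate 3 of 48 h, RVE5 rose by 0.66 (adjusted p = 0.000222) and RVE2 by 0.71 (adjusted p = 0.000561), and both RVE8 copies fell, by 0.98 (chromosome 6, adjusted p = 5.62e-05) and 0.63 (chromosome 16, adjusted p = 0.00227). In that fit 40.3% of tested genes passed upwards and 19.0% downwards. With all 3 libraries of 48 h, the RVE8 values of -0.63 (chromosome 6, adjusted p = 0.205) and 0.0034 (chromosome 16, adjusted p = 0.997) did not pass. The calls of RVE5 and RVE2 in this step were lost when other libraries than that one were left out: RVE5 without any 1 of the 96 h libraries (adjusted p = 0.111 to 0.126) or replicate 1 or 2 of 48 h (adjusted p = 0.0551 and 0.0638), and RVE2 without any 1 of the 96 h libraries (adjusted p = 0.0636 to 0.0793).

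In the last step, 336 h against 96 h, all 4 genes rose. The log2 fold change was 0.43 for the chromosome 6 copy of RVE8 (SE 0.068, adjusted p = 0.00118), 1.35 for the chromosome 16 copy (SE 0.090, adjusted p = 1.3e-05), 0.52 for RVE5 (SE 0.074, adjusted p = 0.000722) and 0.95 for RVE2 (SE 0.068, adjusted p = 1.95e-05). Of all tested genes 30.6% passed upwards, 23.8% downwards and 2.71% were higher DEGs, among them the chromosome 16 copy of RVE8. No library of 96 h reached the level of any library of 336 h for any of the 4 genes. Here and elsewhere, absence of overlap only describes the few libraries of each group. The share of all tested genes that separate in this way is not given.

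Ordered by mean level, RVE2 ran from 24 h (5.18 ± 0.343 FPKM) over 48 h (5.20 ± 0.378 FPKM, or 5.11 FPKM over replicates 1 and 2, below 24 h), the control (6.77 ± 0.219 FPKM), 96 h (9.00 ± 0.667 FPKM) and 12 h (11.0 ± 0.300 FPKM) to 336 h (18.3 ± 0.444 FPKM; SD, n = 3 each). Only its lowest neighbours, 48 and 24 h, had overlapping libraries (log2 fold change 0.0048, adjusted p = 0.979, or -0.017, adjusted p = 0.869, without replicate 3 of 48 h). At 96 h against 12 h the log2 fold change was -0.27 (adjusted p = 0.0072). RVE5 ran from the control (3.94 ± 0.141 FPKM) over 48 h (4.10 ± 0.914 FPKM, or 4.63 FPKM over replicates 1 and 2, above 24 and 12 h), 24 h (4.41 ± 0.417 FPKM) and 12 h (4.60 ± 0.213 FPKM) to 96 h (7.90 ± 0.408 FPKM) and 336 h (11.8 ± 0.932 FPKM). Its lower 4 groups overlapped from neighbour to neighbour, and 96 h stood above 12 h by 0.67 on the log2 scale (adjusted p = 5.16e-05).

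The chromosome 16 copy of RVE8 ran from 12 h (3.23 ± 0.486 FPKM) over the control (4.24 ± 0.569 FPKM), 24 h (5.49 ± 0.208 FPKM), 96 h (5.71 ± 0.801 FPKM) and 48 h (6.81 ± 4.37 FPKM, or 9.34 FPKM over replicates 1 and 2) to 336 h (16.1 ± 0.510 FPKM). At 96 h against 24 h the difference did not pass (adjusted p = 0.709). The 48 h libraries overlapped neither group without replicate 3, when 48 h was above both 24 h (0.67, adjusted p = 0.00016) and 96 h (96 h against 48 h, -0.63, adjusted p = 0.00227). The chromosome 6 copy ran from the control (3.38 ± 0.277 FPKM) over 24 h (4.08 ± 0.225 FPKM), 96 h (4.15 ± 0.252 FPKM), 12 h (4.56 ± 0.627 FPKM) and 336 h (5.96 ± 0.353 FPKM) to 48 h (7.41 ± 3.02 FPKM, or 9.15 FPKM over replicates 1 and 2). The groups of 24, 96 and 12 h overlapped in that order, and 336 h stood above 12 h by 0.33 on the log2 scale (adjusted p = 0.0169).

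The RVE8 copies were set against each other within each library, as log2(FPKM + 1) of the chromosome 16 copy minus that of the chromosome 6 copy. The sources used here do not say how reads that match both copies were counted, so the split between the copies carries that uncertainty. The difference was 1.19, 1.42 and 1.27 at 336 h, against 0.23, 0.42 and 0.11 in the control. Of the summed RVE8 FPKM, the chromosome 16 copy gave 71.4 to 74.9% at 336 h and 52.4 to 59.0% in the control. At 12 h the difference was -0.71, -0.052 and -0.43, with 34.9 to 48.9% of the sum from the chromosome 16 copy. The libraries of 336 h and of 12 h did not overlap the control in this measure, on opposite sides of it. Those of 48 h lay below the control libraries as well.

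Against the control, the mean difference between the copies changed by -0.65 for 12 h, by 0.098 for 24 h, by -0.51 for 48 h, by 0.12 for 96 h and by 1.04 for 336 h. In a two-sided exact permutation test of 3 against 3 libraries, p was 0.1 at 12, 48 and 336 h, the smallest value that this design allows, 0.4 at 24 h and 0.6 at 96 h. Adjusted p-values over these 5 tests cannot fall below 0.1 either. At 48 h the difference was -0.028, 0.083 and -0.83, and without replicate 3 the change was -0.23. The copies therefore stood nearly level in replicates 1 and 2 of 48 h, where both were high, while in replicate 3 the chromosome 16 copy was at 0.449 times the level of the chromosome 6 copy.

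**Figure D3:**
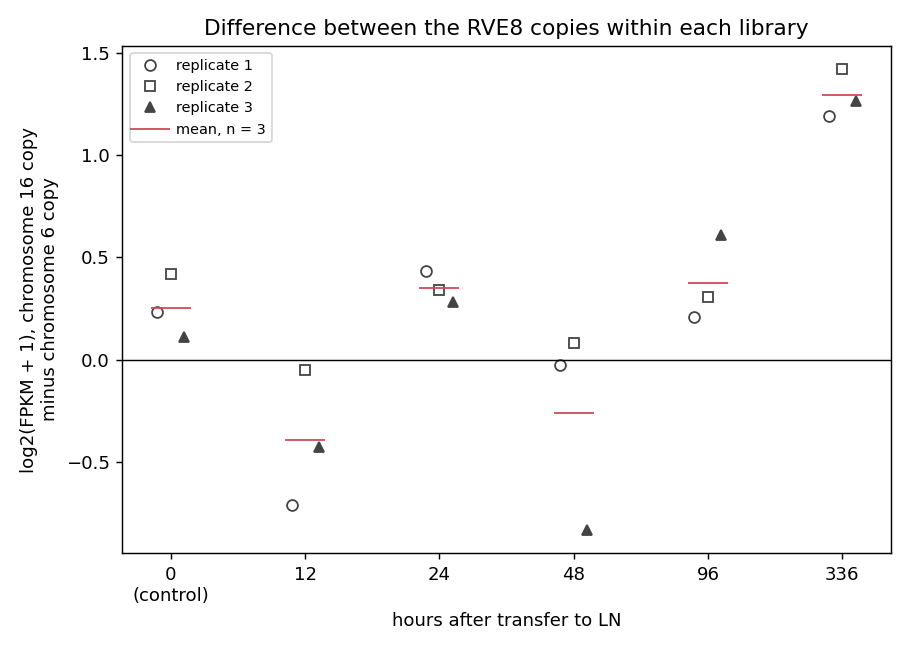
Difference between the RVE8 copies within each library, as log2(FPKM + 1) of the chromosome 16 copy minus that of the chromosome 6 copy (vertical axis), for the control at 0 h and each LN time point (horizontal axis); symbols are libraries and red lines the means of 3 libraries. The 336 h libraries are at 1.19 to 1.42, above all others, and all 3 libraries of 12 h are below 0.

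Within 48 h, the 2 libraries that resembled each other had 2.33 times the level of replicate 3 for the chromosome 6 copy of RVE8, 5.28 times for the chromosome 16 copy and 1.52 times for RVE5, as ratios of the mean of replicates 1 and 2 to replicate 3. For RVE2 the ratio was 0.949. The LHY copies (Potri.002G180800 and Potri.014G106800), dawn repressors of the clock, had ratios of 9.10 and 9.97, with 46.1 and 45.3 FPKM against 5.02 FPKM for the copy on chromosome 2. GIGANTEA, an evening-phased clock gene, had a ratio of 0.328 for its copy on chromosome 5 (Potri.005G196700) and 1.06 for its copy on chromosome 2 (Potri.002G064400). ELF3 (Potri.006G233800) and LUX (Potri.006G034900), which encode parts of the evening complex that represses clock genes at night, had ratios of 0.518 and 0.893. These libraries carry the same label apart from the replicate number, and the ratios are a description without a test.

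**Figure D4:**
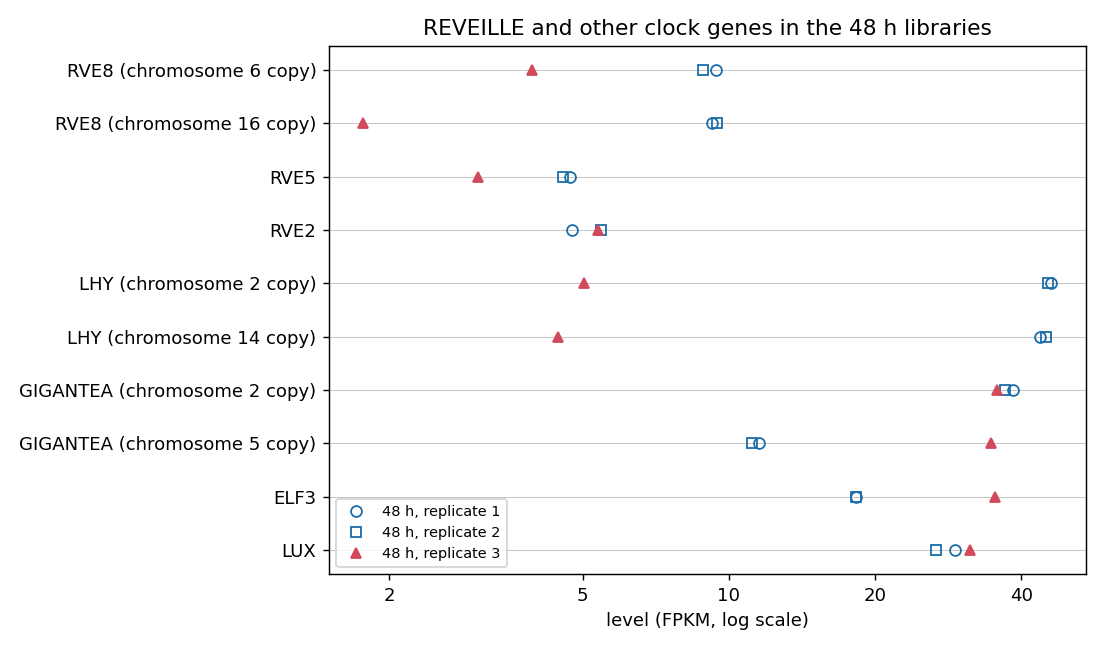
Level of the REVEILLE genes and of 6 other clock genes (FPKM, log scale on the horizontal axis) in the 3 libraries of 48 h; open symbols are replicates 1 and 2 and filled triangles replicate 3. Replicate 3 lies to the left of the others for both RVE8 copies, RVE5 and both LHY copies, to the right for ELF3, LUX and the GIGANTEA copy on chromosome 5, and among them for RVE2.

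The other 6 clock genes with a name in the same tables were measured beside them. At 12 h all 6 fell against the control (median log2 fold change -1.13, against 0.15 over all tested genes), 5 of them as DEGs, while 3 of the 4 REVEILLE genes rose. Lower DEGs made up 2.62% of tested genes at 12 h. With quantile normalization, RVE5 (-0.058, adjusted p = 0.423) and the chromosome 6 copy of RVE8 (0.097, adjusted p = 0.414) did not pass at 12 h, while RVE2 kept its call. LHY on chromosome 14 fell most at 12 h, with a mean of 2.83 FPKM against 18.3 FPKM in the control (log2 fold change -2.33, adjusted p = 1.86e-07). At 24 h, 1 of the 6 rose and 3 fell, and at 96 h, 2 rose and 2 fell. At 48 h 1 of the 6 fell, LUX (log2 fold change -0.69, adjusted p = 0.00969). Leaving out replicate 3 of 48 h, all 6 passed. LHY then rose by 1.60 (chromosome 2, adjusted p = 3.21e-06) and 1.24 (chromosome 14, adjusted p = 2.05e-05) and GIGANTEA on chromosome 2 by 0.25 (adjusted p = 0.0183), while GIGANTEA on chromosome 5 fell by 0.85 (adjusted p = 9.63e-05), ELF3 by 1.06 (adjusted p = 2.55e-05) and LUX by 0.74 (adjusted p = 0.000264).

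At 336 h both LHY copies rose along with the 4 REVEILLE genes, and both GIGANTEA copies, ELF3 and LUX fell. LHY on chromosome 2 had 45.5 to 52.9 FPKM at 336 h against 14.1 to 15.0 FPKM in the control (log2 fold change 1.72, adjusted p = 8.32e-07), and LHY on chromosome 14 had 49.1 to 56.6 FPKM against 17.4 to 19.7 FPKM (log2 fold change 1.46, adjusted p = 2.68e-06). LUX had a mean of 23.2 FPKM against 47.5 FPKM (adjusted p = 2.35e-05) and ELF3 19.3 FPKM against 39.4 FPKM (log2 fold change -0.99, adjusted p = 9.51e-06). GIGANTEA had 16.4 FPKM against 31.5 FPKM for its copy on chromosome 2 (log2 fold change -0.90, adjusted p = 1.3e-05). The tables that name these genes list genes the study selected on the same libraries, so the 6 are not an independent sample of the clock. All 5 comparisons share the control libraries.

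Across the 18 libraries, the chromosome 16 copy of RVE8 followed LHY most closely, with a Pearson r of 0.879 for LHY on chromosome 2 and 0.866 for LHY on chromosome 14 (Spearman rho 0.909 and 0.872, on log2(FPKM + 1)). For the chromosome 6 copy these Pearson values were 0.534 and 0.476, for RVE5 0.622 and 0.548, and for RVE2 0.149 and 0.109. Both RVE8 copies ran opposite to ELF3 (r = -0.758 for chromosome 6 and -0.824 for chromosome 16), and RVE2 ran opposite to GIGANTEA on chromosome 2 (r = -0.738). Among the REVEILLE genes, RVE5 and RVE2 had r = 0.801, RVE5 and the chromosome 16 copy of RVE8 0.783, the RVE8 copies 0.609, and RVE2 and the chromosome 6 copy of RVE8 0.143. The values are descriptions over 18 libraries that form 6 groups of 3, with libraries of a group close together, and all genes of a library share its total. With replicate 3 of 48 h left out, the r of the chromosome 16 copy with LHY was 0.867 and 0.850.

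**Figure D5:**
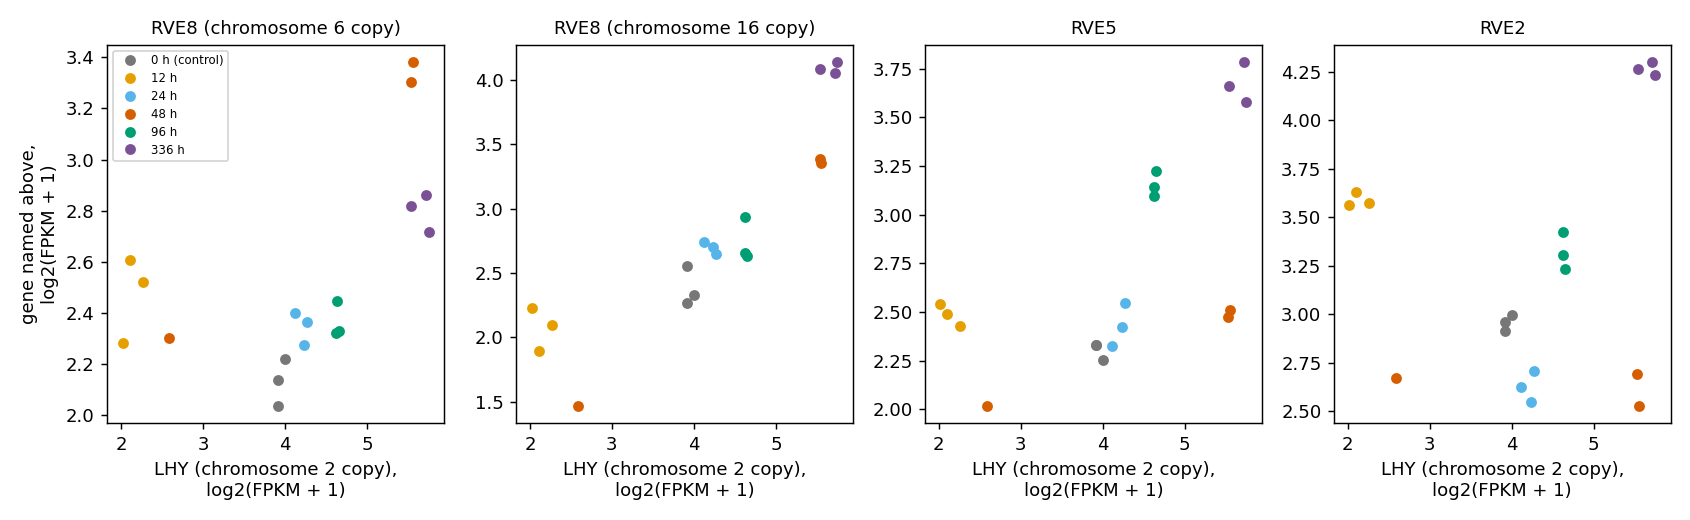
Level of each REVEILLE gene (vertical axis, log2(FPKM + 1)) against that of LHY on chromosome 2 (horizontal axis, log2(FPKM + 1)) in the 18 libraries, coloured by time point. The chromosome 16 copy of RVE8 rises with LHY over the libraries (r = 0.879), while RVE2 is high both at 12 h, where LHY is lowest, and at 336 h, where LHY is high (r = 0.149).

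For each REVEILLE gene, the 5 genes with the highest Pearson r over the 18 libraries were taken from genes whose mean reached 5 FPKM (16435 or 16436 genes). Those most like the chromosome 6 copy of RVE8 had r = 0.962 to 0.971 and included 2 genes named as TIFY proteins, repressors of the jasmonate response in *A. thaliana*, TIFY 9 (Potri.001G062500, r = 0.971) and TIFY 10b (Potri.003G068900, r = 0.962). TIFY 9 had 183, 189 and 5.66 FPKM in the 48 h libraries, and TIFY 10b had 175, 180 and 0.244 FPKM. All 5 genes nearest to this copy were lowest in replicate 3 within 48 h. The same 5 came first when that library was left out. That check keeps replicates 1 and 2 of 48 h, so it cannot show how far r rests on those libraries. At the other times the means were 1.93 to 28.2 FPKM for TIFY 9 and 0.13 to 9.91 FPKM for TIFY 10b. Spearman rho of the 5 genes was 0.839 to 0.88, and 2 of the 5 stayed nearest when group means were used.

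The 5 genes most like RVE5 had r = 0.962 to 0.981, led by a gene named as WRKY transcription factor 70 (Potri.006G109100), a regulator of defence in *A. thaliana*, with means of 24.5 FPKM at 96 h and 47.2 FPKM at 336 h against 6.81 FPKM in the control. Next came Potri.006G157200 (r = 0.980), with 11.5 FPKM at 336 h against 4.36 FPKM in the control. For RVE2 the first was Potri.017G084600 (r = 0.961), with 21.1 FPKM at 12 h, 14.7 FPKM at 24 h and 36.8 FPKM at 336 h, against 15.4 FPKM in the control. For the chromosome 16 copy of RVE8 it was Potri.003G193800 (r = 0.946), with 7.78 FPKM at 12 h and 48.2 FPKM at 336 h, against 9.85 FPKM in the control. These 3 genes carry no name in the tables used. Neither LHY copy was among the 5 nearest genes of any REVEILLE gene. Without replicate 3 of 48 h, 1 of the 5 nearest genes of the chromosome 16 copy of RVE8 was shared, and 3 of 5 for RVE5 and 4 of 5 for RVE2.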

How the data were processed

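RNA-seq of *P. ussuriensis* roots (18 libraries, 6 groups of 3 by the labels) was mapped by the authors to a poplar genome with Potri (v3.0) gene models. The submitters' processing notes name Bowtie2 2.2.3 and HISAT2 2.1.0. The authors deposited FPKM values, scaled by gene length and by the fragments counted on genes. Fragments were recovered from them (tolerance 0.001 fragments, 100% of values whole), with totals of 15945075 to 18193661, and counting errors cover counting only.

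Each pair of groups was fitted on its own 6 libraries with limma 3.58.1 (R 4.3.3) on log2(FPKM + 1). Genes had to reach 1 FPKM in 3 or more of them, with Benjamini-Hochberg adjustment over all genes tested. A gene passed at an adjusted p under 0.05 and was a DEG if its absolute log2 fold change was also at least 1. Fold changes on this scale understate those of low genes. The limma p-values set each difference against the spread between the labelled biological replicates, moderated by that of all genes tested. They hold no spread between batches, since each time point has a batch of its own. In all, 15 pairs were fitted. Exact permutation tests were run with Python 3.11.15 and scipy 1.17.1, and the steps were tested on simulated data.

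Alternatives were a pseudocount of 0.1, no filter, quantile normalization, 1 fit of all 18 libraries, a block for the replicate number, limma-voom on fragments (10 or more in 3 or more libraries) scaled by totals or by median ratios, and each library left out. The genes named are the 4 REVEILLE genes, the 6 other clock genes named in the tables and, for each REVEILLE gene, 5 most alike genes. The members, lists and tests were chosen with earlier results of these data known. Sequences and gene positions were not used here.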

Additional observations from a re-analysis of the deposited data

Results flagged for a closer look

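RVE2 and the chromosome 16 copy of RVE8 changed in opposite directions against the control at different LN times, and the direct comparison of those times also passed the test by limma. RVE2 rose at 12 h and fell at 24 h, and at 24 h against 12 h its log2 fold change was -0.96 (adjusted p = 3.18e-05). It rose again at later times, with 0.69 at 96 h against 24 h (adjusted p = 0.000158) and 1.64 at 336 h against 24 h (adjusted p = 1.42e-06). The 3 libraries of each of these times did not overlap those of the other.

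The chromosome 16 copy of RVE8 fell at 12 h and rose at 24, 96 and 336 h, with log2 fold changes against 12 h of 0.62 at 24 h (adjusted p = 0.00121), 0.67 at 96 h (adjusted p = 0.00136) and 2.02 at 336 h (adjusted p = 1.48e-06). Its fall at 12 h depended on single libraries. The 12 h group differs from the others in the number of hours past a multiple of 24 h after the control. It also has a labelled batch of its own, as has every other time point. The part of either in these differences was not tested. Groups of 3 are too small for the test of single far-off libraries.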

How the results depend on the processing

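The values checked were those of 9 comparisons of each REVEILLE gene (5 against the control and 4 steps) and of the RVE8 copy difference. Of these, 202 of 246 stayed the same when 1 library was left out, and 207 of 257 under the other settings. For a gene, this means the same direction and side of the thresholds. For the copy difference, it means a move smaller than the larger group SD. All calls against the control at 336 h and those of RVE2 at 12 and 24 h were among the values that stayed the same. The remaining values follow as log2 fold changes, and the cause was not tested for any of them.

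With quantile normalization, these no longer passed against the control: the chromosome 6 copy of RVE8 at 12 h (0.097) and 24 h (0.018), the chromosome 16 copy at 24 h (0.13) and 96 h (0.064), and RVE2 at 96 h (0.13). RVE5 at 96 h against 48 h no longer passed either (0.66). The direction turned for RVE5 at 12 h (-0.058), 24 h (-0.058) and 48 h (-0.096), the chromosome 6 copy of RVE8 at 96 h (-0.096), the chromosome 16 copy at 96 h against 48 h (-0.16), and LHY on chromosome 14 at 24 h (-0.017) and 96 h (-0.11). RVE2 at 48 h passed (-0.43).

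With limma-voom on fragments and median-ratio scaling, the values that no longer passed were those of the chromosome 6 copy of RVE8 at 12 h (0.26), 24 h (0.17) and 96 h (0.12), of the chromosome 16 copy at 24 h (0.28) and 96 h (0.25) and of RVE5 at 12 h (0.053). RVE2 became a DEG at 24 h against 12 h (-1.03) and passed at 48 h (-0.44). The direction turned for RVE5 at 48 h (-0.031), the chromosome 16 copy of RVE8 at 96 h against 48 h (-0.025), LHY on chromosome 14 at 24 h (-0.047) and 96 h (-0.16), and GIGANTEA on chromosome 2 at 96 h (-0.042). With library totals, RVE5 at 12 h (0.22) and the chromosome 6 copy of RVE8 at 24 h (0.27) no longer passed. RVE2 at 24 h against 12 h (-1.09) and at 336 h against 96 h (1.02) and RVE5 at 96 h (1.00004, at the limit of 1) became DEGs, and the chromosome 16 copy of RVE8 at 48 h against 24 h turned (-0.0085).

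With all 18 libraries in 1 fit, whose spread includes replicate 3 of 48 h, the chromosome 6 copy of RVE8 no longer passed at 12 h (0.34), 24 h (0.21), 96 h (0.23) and 336 h against 96 h (0.43), nor did the chromosome 16 copy at 12 h (-0.31), 24 h (0.31), 24 h against 12 h (0.62) and 96 h (0.35), nor RVE5 at 12 h (0.18). In that fit the chromosome 6 copy passed at 48 h (0.87), 48 h against 24 h (0.65) and 96 h against 48 h (-0.63), and RVE2 at 48 h (-0.33). Without the filter, the chromosome 16 copy lost its calls at 12 h (-0.31) and 96 h (0.35), and RVE2 passed at 48 h (-0.33). A pseudocount of 0.1 made RVE2 a DEG at 24 h against 12 h (-1.08) and 336 h against 96 h (1.02) and turned the chromosome 16 copy at 48 h against 24 h (-0.023).

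The replicate numbers did not pair the samples, since deviations of same-numbered libraries from their group means correlated at -0.13 to 0.039. A replicate block took away the calls of RVE5 at 12 h (0.18, adjusted p = 0.0595) and at 96 h against 48 h (0.82, adjusted p = 0.0787) and of RVE2 at 96 h against 48 h (0.69, adjusted p = 0.0761), and it changed no other call of a REVEILLE gene. At 48 h 738 genes passed upwards and 575 downwards with it, against 1843 and 1262 without it.

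With single libraries left out, values ranged as follows where a call or direction changed. Against the control, the chromosome 16 copy of RVE8 ranged from -0.39 to -0.22 at 12 h, 0.25 to 0.40 at 24 h, 0.027 to 0.98 at 48 h and 0.26 to 0.44 at 96 h, and the chromosome 6 copy from 0.17 to 0.26 at 24 h, 0.67 to 1.21 at 48 h and 0.19 to 0.28 at 96 h. RVE5 ranged from 0.15 to 0.21 at 12 h and -0.058 to 0.19 at 48 h, RVE2 from -0.36 to -0.28 at 48 h, and LHY on chromosome 14 from -0.30 to 1.24 at 48 h and -0.020 to 0.069 at 96 h. At 24 h against 12 h RVE2 ranged from -1.00292 to -0.92. At 48 h against 24 h the ranges were 0.46 to 0.997 (chromosome 6 copy), -0.29 to 0.67 (chromosome 16 copy), -0.19 to 0.060 (RVE5) and -0.035 to 0.056 (RVE2). At 96 h against 48 h they were -0.98 to -0.44, -0.63 to 0.33, 0.66 to 0.91 and 0.64 to 0.73 for the same genes.

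Counts over all genes against the control that moved by more than 1.5 times, beside those given with each comparison, were as follows. Higher DEGs numbered 1428, 977, 1912 and 1931 at 12, 24, 96 and 336 h, against 2628, 1878, 3793 and 3580 by limma-voom with library totals. Median-ratio scaling gave 1620 higher DEGs at 24 h and 2980 at 96 h, a pseudocount of 0.1 gave 1475 and 2976, and quantile normalization gave 1233 at 96 h and 1259 at 336 h. With median-ratio scaling 7751, 6140, 1919, 7774 and 7375 genes passed downwards at 12, 24, 48, 96 and 336 h and 7123 upwards at 336 h. All 18 libraries in 1 fit gave 2397 downwards at 24 h, and 5392 upwards, 3681 downwards and 1311 higher DEGs at 48 h. Leaving out single libraries gave 424 to 5868 genes upwards, 372 to 6247 downwards and 260 to 1714 higher DEGs at 48 h, in each case most without replicate 3 of 48 h.

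Of the 5 genes most like each REVEILLE gene, 2, 0, 3 and 1 were shared when means of the 6 time points were used (in the order RVE8 on chromosome 6, RVE8 on chromosome 16, RVE5, RVE2). With 42 to 398 fragments behind each value of the chromosome 16 copy of RVE8, that gene had the lowest minimum of the 4, in replicate 3 of 48 h. At 336 h the chromosome 6 copy had fewer, with 660 fragments over the group against 1184 for the chromosome 16 copy.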
